A study of Rattus norvegicus with 10 samples.

Results

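The skeletal myosin heavy chain cluster is a row of 6 genes, Myh3, Myh2, Myh1, Myh4, Myh8 and Myh13, on rat chromosome 10. Open chromatin was described here over chr10:53550001-53900000 (rn6), an interval of 350 kb, and a member is each called region that overlaps it. The interval was chosen by its peak counts, which were higher in muscle than in adipose tissue in an earlier pass over these lists, so every difference between the tissues is a description and carries no test. Peaks of all 10 libraries merged into 125 regions in the interval, out of 802351 on the placed chromosomes.

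The study measured chromatin accessibility by ATAC-seq: a transposase inserts adapters into open DNA of isolated nuclei, and the tagged fragments are sequenced. One group is abdominal white adipose tissue (5 libraries) and the other is gastrocnemius, a calf muscle (5 libraries). All were labelled as male Fischer 344 rats of 8 months, with no drug, diet or genetic change named. Some libraries came from single animals and others from pools of 15 males, per the design text, which does not say which is which. The replicates are therefore libraries, and each p-value here reflects library-to-library spread, which may be technical in part.

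Myosin heavy chains are the motor proteins of the thick filament: they bind actin, split ATP and pull the sarcomere shut. Adult fast fibres are typed by the heavy chain they hold, with MYH2 in type IIa, MYH1 in type IIx and MYH4 in type IIb fibres. Myh3 encodes the embryonic form, Myh8 the perinatal form, both of which return in regenerating fibres, and Myh13 the form known from the eye muscles. Gastrocnemius is a mixed muscle in which fast fibres prevail, and white fat cells hold no sarcomere. The muscle samples are bulk tissue, with nuclei of fibres, vessels, connective tissue and satellite cells together, and fewer open nuclei and less open DNA per nucleus cannot be told apart.

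In the RefSeq gene table for the assembly GRCr8 the members stand in the order Myh3, Myh2, Myh1, Myh4, Myh8, Myh13, between Sco1 and Gas7. The table lists 3 long non-coding RNA genes between Myh3 and Myh2, 1 between Myh1 and Myh4, and none in the other gaps. The peaks are in rn6, and positions were not carried between assemblies. Which peak lies at which of the 6 genes, in an exon, an intron or a promoter, was therefore not analysed here, and neither tissue could be checked against its marker genes.

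The RefSeq promoters of the 4 members that carry a TATAAA near their annotated start are shown because 3 of them, those of the adult fast forms, share a long run of letters. All 6 members matched an entry of the promoter table. Each line gives the 250 bases before the start, 5′ to 3′ on the plus strand of GRCr8, and these positions cannot be set beside the rn6 positions of the peaks. Capitals mark TATAAA and the shared run.
Myh3, embryonic, GRCr8 chr10:52268935-52269184: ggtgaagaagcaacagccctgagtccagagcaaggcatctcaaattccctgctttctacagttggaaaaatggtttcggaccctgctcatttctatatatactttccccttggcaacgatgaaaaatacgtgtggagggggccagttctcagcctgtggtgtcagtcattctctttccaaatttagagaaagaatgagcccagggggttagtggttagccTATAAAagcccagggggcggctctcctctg
Myh2, type IIa, GRCr8 chr10:52355489-52355738: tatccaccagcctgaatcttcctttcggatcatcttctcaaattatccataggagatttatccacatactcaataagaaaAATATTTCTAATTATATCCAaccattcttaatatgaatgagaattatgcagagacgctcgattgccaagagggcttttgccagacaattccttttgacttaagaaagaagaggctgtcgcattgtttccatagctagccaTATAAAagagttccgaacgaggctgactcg
Myh1, type IIx, GRCr8 chr10:52384662-52384911: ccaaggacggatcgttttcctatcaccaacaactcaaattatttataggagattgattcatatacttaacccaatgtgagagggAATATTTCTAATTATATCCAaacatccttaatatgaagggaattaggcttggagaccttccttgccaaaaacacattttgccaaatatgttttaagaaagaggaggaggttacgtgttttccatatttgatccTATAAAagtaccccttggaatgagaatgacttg
Myh4, type IIb, GRCr8 chr10:52421898-52422147: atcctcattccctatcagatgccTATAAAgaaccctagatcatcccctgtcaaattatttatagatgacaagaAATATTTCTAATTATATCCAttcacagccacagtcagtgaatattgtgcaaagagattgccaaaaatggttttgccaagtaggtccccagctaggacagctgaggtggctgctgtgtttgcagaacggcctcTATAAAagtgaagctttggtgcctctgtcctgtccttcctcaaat

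The run AATATTTCTAATTATATCCA, of 20 bases, begins 170 bases before the start of Myh2, 166 before that of Myh1 and 177 before that of Myh4. Only those 3 of the 6 members hold it. Over all promoter entries it stood in 5 of 33469 (0.0149%), the other 2 being entries of LOC102555216, a gene on the minus strand whose windows overlap that of Myh4. The letters were picked from these promoters, so the share describes the run and tests nothing. Myh3 shared at most 11 bases in a row with any other member. The letters TATAAA, read forward, lay 30 bases before the start of Myh3 and of Myh2, 33 before Myh1 and 45 before Myh4, with a further copy upstream in Myh4. On either strand they stood in 12.9% of all promoters. Myh8 and Myh13 had none in their windows. Whether the annotated starts of these genes are where transcription begins was not checked, so their windows may not be their promoters. The letters CANNTG, which read the same on both strands and make up the E-box bound by MyoD and its relatives, occurred at 1 place in Myh3, at 2 places in Myh4 and at 3 in Myh13, and 65.5% of all promoters held them. The windows of Myh2, Myh1 and Myh8 did not hold these letters.

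Before the results, 3 libraries stand apart. Adipose replicates 2, 3 and 4 had 0, 0 and 1 peaks on chromosome Y, whereas the other 7 libraries had between 16 and 45. The same 3 held 2.78% to 3.47% of their peaks on chromosome X, and the others 1.07% to 1.74%. This goes against their label as male. Rat numbers 1 to 5 recur in the titles of either tissue, but muscle replicates 2, 3 and 4 had 17, 24 and 24 Y peaks, so the shared numbers were not used to pair libraries. Counts of adipose peaks, regions and windows are given with and without the 3 libraries. The peak lists held 164283 to 188890 peaks in muscle and 243928 to 259149 in adipose. Read totals are not in the lists. The weakest listed peak had a −log10 p between 3.26 and 4.27 in adipose and of 2.00 in muscle, so weak peaks are listed more freely in muscle, which bears on each raw count.

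Muscle had many peaks in the interval and adipose tissue few. The muscle libraries had 78, 85, 78, 79 and 79 peaks (79.8 ± 2.95, SD, n = 5). The adipose libraries had 8, 13, 13, 9 and 8 (10.2 ± 2.59, SD, n = 5). The groups did not overlap, and the 2 adipose libraries with Y peaks had 8 each. Peaks whose −log10 q reached 5, called strong here, are above the floor of every list. They numbered 52, 52, 50, 47 and 56 in muscle (51.4 ± 3.29, SD) and 3, 7, 7, 6 and 4 in adipose (5.40 ± 1.82, SD). Called sequence covered 33.3 ± 2.09 kb of the interval in muscle and 4.38 ± 1.32 kb in adipose (SD, n = 5), where the 2 libraries with Y peaks had 2.72 and 3.62 kb. The contrast did not reach past the left edge: the 350 kb before the interval held 8.60 ± 1.95 peaks in muscle and 9.40 ± 2.70 in adipose. The 350 kb after it held 61.2 ± 6.94 and 46.4 ± 8.44, and there the raw counts of the groups overlapped. The flank counts were not scaled for the length or the floor of the lists, which differ between the tissues. The adipose libraries with Y peaks had 6 and 8 before it and 39 and 54 after it.

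Of the 125 regions, 44 were called in all 5 muscle libraries (35.2%, against 11.3% in the series). Of these, 34 had no adipose peak in any library (27.2% of the regions in the interval). Over all regions of the series, 2.39% were called in all 5 muscle and no adipose library. With only the adipose libraries that have Y peaks, 38 regions met the rule (3.53% in the series). The opposite pattern, all 5 adipose and no muscle library, was met by 0 regions here and by 0.730% in the series, and with the 2 libraries alone by 0 and 3.81%. Both shares rest on the contrast that picked the interval. Of the 125 regions, 4 were called in all 10 libraries (5.16% in the series). The number was also 4 when only the adipose libraries with Y peaks were required (5.88% in the series). A further 40 regions were called in 1 library only, a muscle library for 36 of them. Calls in 1 library only were a smaller share here than in the series, where they made up 58.1%. Calls in 1 muscle library only were a larger share here, against 11.2% in the series.

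In windows of 10 kb, the lowest muscle count was above the highest adipose count in 16 of 35 windows, against 2.86% of the 230128 autosomal windows with a peak. Only 31 of the 35 held a peak in any library, which is the base that matches the series share. Adipose was above muscle in 0 of 35 windows, against 5.13% of all. Using only the adipose libraries with Y peaks the numbers were 17 and 0, against 5.81% and 17.4%. The fullest muscle windows were chr10:53640001-53650000 (5.80 ± 0.447 peaks, SD, n = 5), chr10:53790001-53800000 (5.80 ± 0.837), chr10:53660001-53670000 (5.20 ± 0.447) and chr10:53760001-53770000 (5.20 ± 2.05). The last is far more variable than the others. At the right end 4 windows, those starting at 53840001, 53860001, 53870001 and 53890001, had no muscle peak. The emptiest with any were those starting at 53600001 and 53880001, with 1 peak each over the 5 libraries, and 53550001, with 2. The longest stretch without a muscle region ran over 27519 bp from 53859711, while the median gap was 1002 bp.

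**Figure D1:**
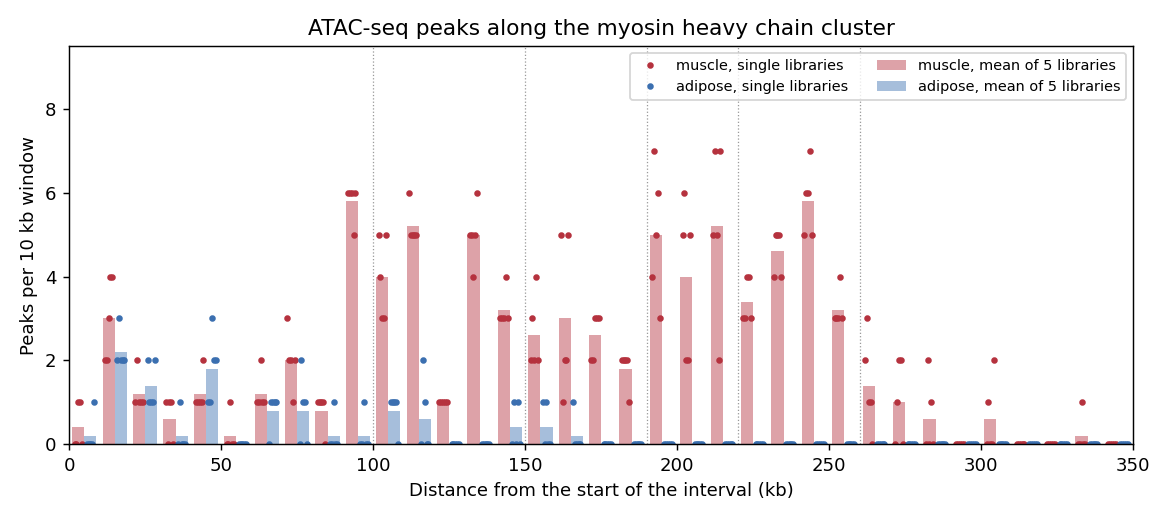
Peaks per 10 kb window (y axis) against distance from the start of the interval in kb (x axis). Bars are means of 5 libraries, points are single libraries, and dotted lines part the 6 stretches; muscle peaks crowd between 90 and 260 kb, whereas adipose points are at 0 from 190 kb on.

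The last region before it, chr10:53544820-53546025, was called in all 10 libraries with pileups of 3.66 to 14.8 times the genome-wide background, and the first inside, chr10:53551989-53552222, in 1 adipose library. The last inside, chr10:53887230-53887473, and the first after, chr10:53902469-53902657, were each called in 1 muscle library. The last 3 had pileups of 2.61 to 3.42 times that background.

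Fold enrichment alone hid how dense the reads were. The deposited fold is the pileup at the summit plus 1, divided by the local background plus 1, and it came with a −log10 p. Both values together gave back a whole number of reads at the summit in every row of all 10 lists (within 0.05 of a whole number), and with it the local background, the pileup that the caller expected there. Each library's lowest local background, 3.01 to 5.23 reads, is called its genome-wide background, and pileups and local backgrounds are given as multiples of it.

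The highest summit of the interval held 606, 856, 696, 526 and 1094 reads in the muscle libraries and 94, 153, 192, 205 and 141 in the adipose libraries. As multiples of the genome-wide background these were 167 ± 29.6 and 40.1 ± 5.77 (SD, n = 5). The highest local background was 34.5 ± 1.38 times the genome-wide level in muscle, between 32.1 and 35.8, and 2.72 ± 0.460 times in adipose. In muscle, then, the pileup expected around the peaks was itself high. High local backgrounds were also commoner in muscle over the whole lists. Values of at least 10 times the genome-wide level were held by 2.88% to 5.78% of all muscle peaks, and by 0.100% to 0.166% of all adipose peaks.

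Within muscle the cluster's peaks were set against all other peaks of the same library. This does not use adipose tissue, but it uses the muscle lists that helped to pick the interval. By fold, the median cluster peak stood at percentiles 33.9, 22.0, 30.9, 24.8 and 27.1 of its list, below the rest in 5 of 5 libraries (mean difference −22.0 points). By pileup, it stood at percentiles 86.1, 80.8, 82.0, 82.2 and 76.0, above the rest in 5 of 5 (mean difference 31.3 points). The pileup difference was smaller, at 13.5 points, against peaks of muscle-exclusive regions elsewhere, and 16.5 points among strong peaks. The fold difference was −36.8 points against those muscle-exclusive regions. The same peaks thus ranked low by fold and high by pileup. Their median local background was 10.8, 11.6, 7.81, 8.43 and 8.66 times the genome-wide level (9.47 ± 1.65, SD), against 1.48 ± 0.0796 for the other peaks. The two-sided exact sign-flip permutation test gave p = 0.0625 for each of the 3, the smallest value 5 libraries allow (adjusted p = 0.0833 over the 4 planned measures for fold, and 0.0750 over all 6 for the other 2). So 0.05 could not be reached. Pileup percentile and local background were not planned and were added after seeing the values. The interval was picked for its peak counts in these same muscle lists, so the p-values are descriptive and give no independent support. Fold, pileup and local background are tied by the formula of the fold and are not separate results.

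**Figure D2:**
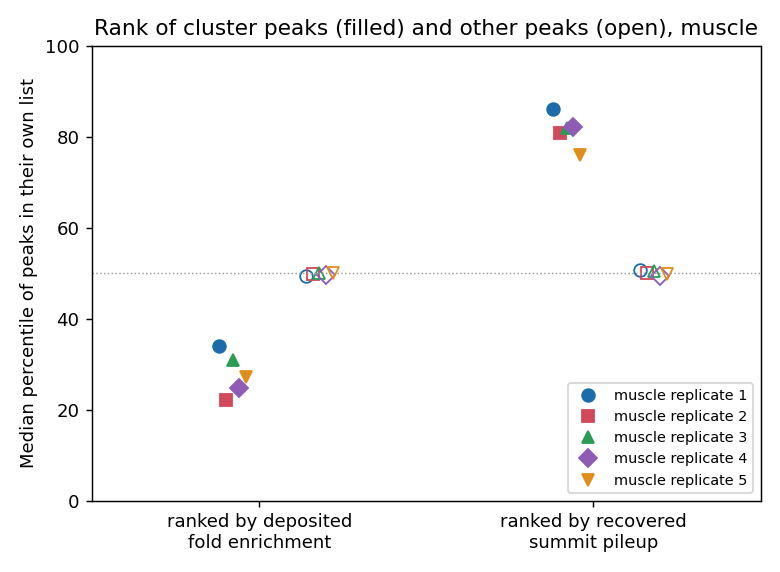
Median percentile of peaks within their own list (y axis) for the 5 muscle libraries, ranked by deposited fold enrichment or by recovered summit pileup (x axis). Filled symbols are cluster peaks and open symbols all other peaks; cluster peaks lie between 22.0 and 33.9 by fold and between 76.0 and 86.1 by pileup.

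The other measures differed less, and the same limit from the choice of the interval holds for their p-values. Strong peaks made up 64.5% ± 4.52 of the cluster's peaks and 57.2% ± 6.92 of the others, higher in 5 of 5 libraries (exact permutation p = 0.0625, adjusted 0.0833). Against other peaks of chromosome 10 the difference was 3.08 points in place of 7.25, and against muscle-exclusive regions elsewhere it turned to −17.5 points. The median width was 332 ± 11.5 bp against 312 ± 20.0 bp, also higher in 5 of 5 (exact permutation p = 0.0625, adjusted 0.0833). That sign turned against other peaks of chromosome 10 (−4.00 bp) and among strong peaks (−36.5 bp). Summits per peak were 1.39 ± 0.0686 against 1.37 ± 0.0387, higher in 3 of 5 (exact permutation p = 0.750, adjusted 0.750). Where called sequence of 2 muscle libraries was compared, the shared part of their joint length (the Jaccard index) was 0.609 in the interval (0.561 to 0.673 over 10 pairs) and 0.553 over the rest of the autosomes. It was higher in the interval in 9 of 10 pairs, which share libraries and carry no test.

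The reads were not spread evenly, and 6 stretches, drawn after seeing the values, describe them. In the first 100 kb muscle had 16.4 ± 1.52 peaks and adipose 7.80 ± 1.92 (SD, n = 5), the libraries with Y peaks 5 and 8, with a median local background of 2.69 ± 0.428 in muscle. From 100 to 150 kb muscle had 18.4 ± 1.67 peaks, 17.8 ± 1.92 of them strong, over a background of 13.1 ± 1.24, and the adipose libraries had 1, 4, 2, 2 and 0. From 150 to 190 kb the muscle background was down to 2.31 ± 0.298, with 10.0 ± 1.41 peaks. It was 10.6 ± 2.20 from 190 to 220 kb (14.2 ± 3.77 peaks) and 15.5 ± 3.85 from 220 to 260 kb (17.0 ± 2.12 peaks). After 260 kb it was 1.04 ± 0.0864, with 3.80 ± 2.05 peaks. From 190 kb on no adipose library had a peak. The stretches differ in length, and per 10 kb muscle had 1.64, 3.68, 2.50, 4.73, 4.25 and 0.422 peaks, from first to last. By local background, muscle thus shows a pair of dense blocks with a sparse gap between them. In peaks per 10 kb that gap was below both blocks but above the first 100 kb.

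The outer edges of the dense part lay at nearly the same base in every muscle library. The first peak with a local background of at least 10 began between 53652123 and 53652138, and the last ended between 53804807 and 53804839. Within those bounds 45, 50, 26, 34 and 28 peaks met that level. The inner edges differed: the last such peak of the first block ended at 53687731, 53687702, 53672306, 53687649 and 53672304, and the first of the second block began at 53740397, 53740388, 53776357, 53744972 and 53740153. Replicate 3 thus entered the second block at that level later than the others, in its 220 to 260 kb stretch. These inner edges hang on the cutoff of 10. At chr10:53744961-53746246 the local background was 9.22 in replicate 3 and 10.0 in replicate 4. At chr10:53687198-53687731 it was 9.98 in replicate 3. The densest window was chr10:53660001-53670000, at 32.3 ± 1.80 times the genome-wide background. It ranked 47 among the 68040 windows of the series with a peak in all 5 muscle libraries, whose median was 1.69. Of the 22 such windows in the interval 10 reached 10 times the background, against 4.35% in the series. These ranks describe windows picked for their muscle peaks.

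**Figure D3:**
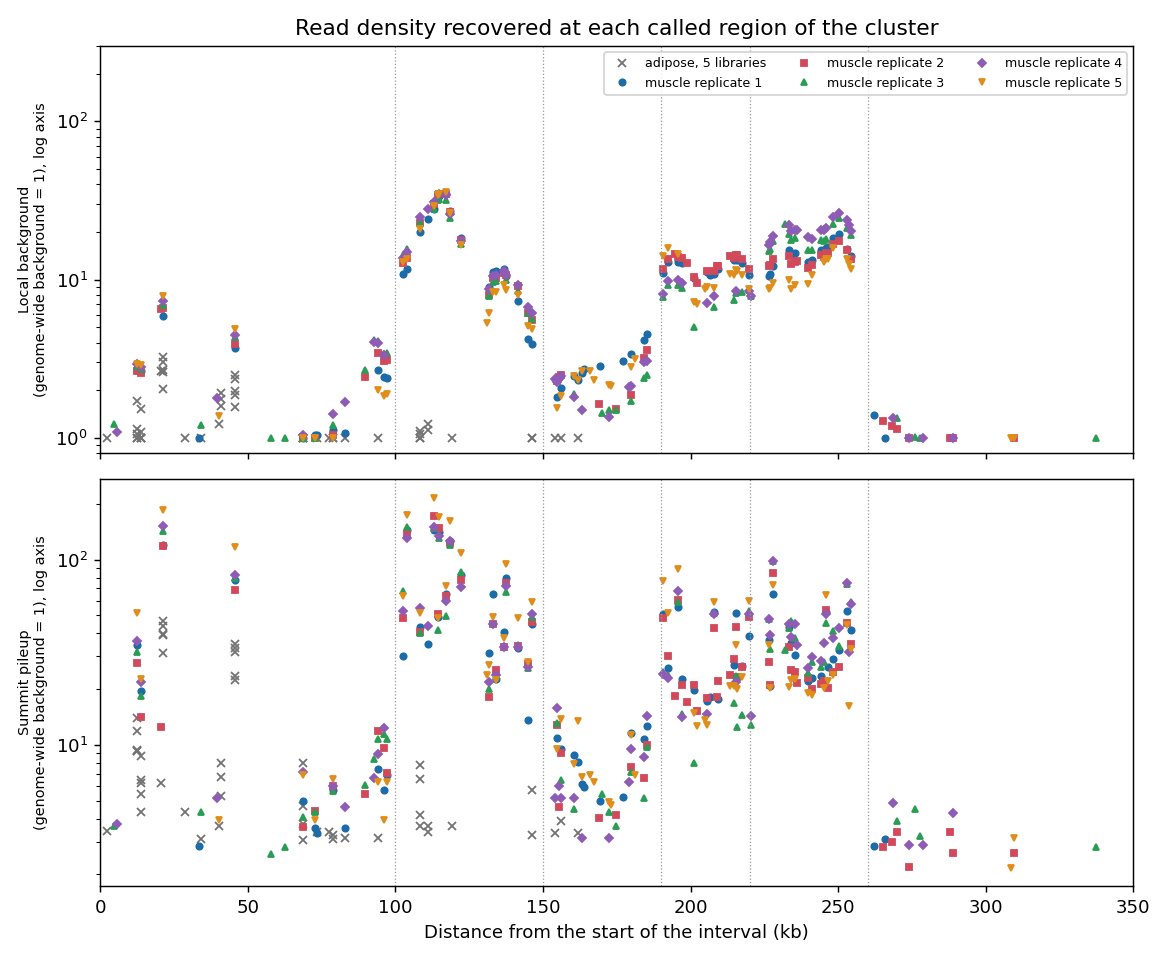
Local background (top) and summit pileup (bottom) of each called region, as multiples of each library's genome-wide background on log axes, against distance from the start of the interval in kb. Coloured symbols are the 5 muscle libraries and grey crosses the adipose libraries; in muscle the background peaks near 115 kb at 32.1 to 35.8 and is high again from 190 to 260 kb.

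The 4 regions called in all 10 libraries lay in the first 50 kb: chr10:53561895-53563169, chr10:53563331-53564490, chr10:53570655-53571620 and chr10:53595187-53596350. At chr10:53570655-53571620 the summit pileup was 504, 590, 662, 526 and 937 reads in muscle and 94, 153, 192, 205 and 141 in adipose. As multiples of background this was 143 ± 27.4 and 40.1 ± 5.77 (SD, n = 5), and the groups did not overlap. Its fold of 20.0 ± 2.07 in muscle was the highest mean fold of the 44 regions. At chr10:53595187-53596350 the relative pileup was 85.1 ± 18.9 in muscle and 29.1 ± 5.78 in adipose. It was 36.2 ± 9.06 and 10.8 ± 2.11 at chr10:53561895-53563169, and 19.3 at the neighbour chr10:53563331-53564490, against 6.24 in adipose. Each of these 4 had the higher mean pileup and mean fold in muscle. Ranks within each list did not follow. At chr10:53595187-53596350 the pileup percentile was 96.9 to 97.8 in adipose and lower, 94.2 to 96.0, in muscle. At the others the ranges overlapped. In adipose and in muscle they were 98.3 to 98.7 and 98.1 to 98.8 at chr10:53570655-53571620. They were 82.4 to 91.9 and 84.2 to 89.3 at chr10:53561895-53563169, and 42.3 to 81.6 and 72.7 to 81.7 at chr10:53563331-53564490.

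Among the named regions, 2 had an adipose peak and no muscle peak: chr10:53590721-53590984, called in 3 adipose libraries, and chr10:53578480-53578648, called in 1. At chr10:53618228-53618861, called in 5 muscle and 4 adipose libraries, the pileups were alike, at 5.36 ± 1.62 and 4.86 times the background.

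Fold and pileup gave opposite orders at chr10:53658168-53658593, called in 5 muscle and 4 adipose libraries. The summit held 182, 203, 186, 190 and 261 reads in muscle and 11, 30, 27 and 22 in adipose, so the groups did not overlap. Yet the fold was 2.15, 1.79, 1.72, 2.19 and 2.47 in muscle and 3.00, 5.91, 5.23 and 3.69 in adipose, the reverse order. The local background was 22.3 in muscle on average and between 1.00 and 1.10 in adipose. At chr10:53695975-53696339, called in 5 muscle and 2 adipose libraries, the relative pileup was 50.0 ± 5.49 against 5.70 and 3.25.

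The 10 muscle regions without adipose peaks that ranked best by their worst fold percentile numbered 6 in the first block, 1 in the sparse gap and 3 in the second block. First was chr10:53652983-53654834, of 1852 bp, at the left end of the first block. Its summit held 604, 684, 696, 454 and 880 reads, or 147 ± 16.7 times the background, with a fold of 10.5 ± 1.77 (SD, n = 5). The tallest was chr10:53662606-53663685, with 606, 856, 684, 519 and 1094 reads, or 166 ± 30.2 times. Its fold was only 5.65 ± 1.01, over a local background of 29.1 times. The neighbour chr10:53668255-53668843 reached 131 ± 17.1 times, with a fold of 5.00 ± 0.632. Also in the first block were chr10:53671843-53672316 (85.0 ± 14.2), chr10:53682963-53683463 (49.8 ± 8.86) and chr10:53687198-53687731 (77.7 ± 10.3).

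In the sparse gap lay chr10:53704632-53705109, with a relative pileup of 12.4 ± 2.40 but a fold of 5.56 ± 0.466, close to that of the tallest region. The second block held chr10:53744961-53746246 (66.2 ± 13.4, 1286 bp), chr10:53757587-53758315 (51.3 ± 5.75) and chr10:53777446-53778579 (84.1 ± 14.9). Over all 34 such regions the mean relative pileup ran from 8.61 to 166 with a median of 42.0, and the mean fold from 1.57 to 10.5 with a median of 3.52.

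The muscle libraries lay closer together in the first block than in the second. Over the 15 regions called in all of them from 100 to 150 kb, the mean log2 relative pileup was 5.82, 5.85, 5.85, 5.87 and 6.15 in replicates 1 to 5. From 190 to 220 kb the median local background was 12.1, 13.2, 8.28, 8.45 and 10.7, and from 220 to 260 kb it was 14.7, 13.6, 18.0, 20.5 and 10.6. The ratio of the later to the earlier stretch was 1.21, 1.02, 2.17, 2.43 and 0.998. Replicates 3 and 4 were thus low in the earlier stretch and high in the later one. The same order appeared in pileup: the mean log2 value over 12 regions of the later stretch minus that over 6 of the earlier was −0.32, −0.49, 0.30, 0.36 and −1.01.

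In pileup, replicates 1, 2 and 5 shifted the opposite way from replicates 3 and 4, and replicate 5 shifted the most. In the whole series replicate 5 had the highest relative pileup of the 5 in 59.9% of the 90526 regions called in all muscle libraries, and the lowest in 7.90%. It was highest in 10 of 15 regions from 100 to 150 kb and in 5 of 6 from 190 to 220 kb. From 220 to 260 kb it was highest in 1 of 12 and lowest in 9 of 12, where replicate 4 was highest in 7 and replicate 3 in 4. At chr10:53740153-53741051, in the earlier stretch, the relative pileup was 50.9, 48.3, 24.8, 24.1 and 76.7 in replicates 1 to 5. At chr10:53782972-53783566, in the later one, it was 43.5, 33.9, 42.5, 45.1 and 20.5. Those 2 regions were chosen after their values were seen. The shift between stretches compares libraries of 1 group and has no test, and its relation to the makeup of the muscle sample or to pooling was not tested.

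**Figure D4:**
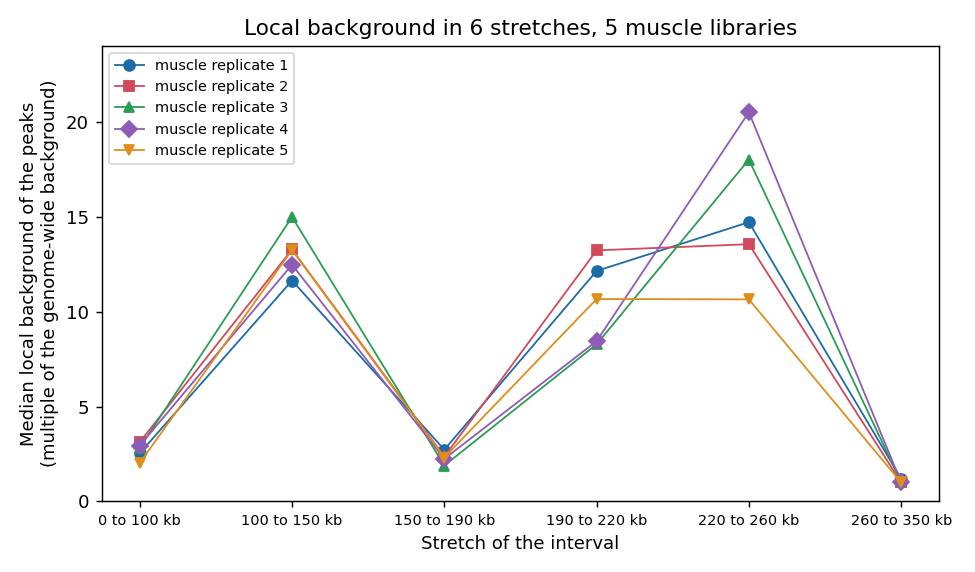
Median local background of the peaks, as a multiple of the genome-wide background (y axis), in 6 stretches of the interval (x axis) for the 5 muscle libraries; lines join values of 1 library. The libraries lie close together from 100 to 150 kb, and between 220 and 260 kb they spread from 10.6 in replicate 5 to 20.5 in replicate 4.

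The 3 regions whose fold percentile varied most between muscle libraries were chr10:53705734-53706418, chr10:53645285-53646675 and chr10:53795569-53796249, with SDs of 28.0, 22.7 and 18.7 points. At chr10:53705734-53706418 the fold was 4.21, 3.44, 2.48, 2.00 and 6.87, and 1 adipose library had a peak of 3.31. At chr10:53645285-53646675 the summit held 24, 48, 53, 43 and 20 reads, lowest in replicates 1 and 5. At chr10:53795569-53796249 the relative pileup was 51.8, 53.7, 45.3, 50.8 and 64.2, and the local background 15.9, 14.7, 18.2, 21.3 and 13.5. Replicate 5 had both the highest pileup and the lowest background there.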

How the data were processed

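Deposited peak lists of 10 ATAC-seq libraries were used (9 samples per tissue are named in the design text; the others were not analysed here). Bowtie2, Trimmomatic, FastQC, MACS2 and Picard, and rn6 as build, are listed per the submitters' processing notes; their settings and any shift of reads for the transposase are not given in the sources used here. Each deposited row holds the authors' score, fold enrichment at the summit, −log10 p and −log10 q, and a summit offset. Rows with 1 interval counted as 1 peak, and peaks overlapping by at least 1 bp were merged into regions.

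The interval, its genes, and every list and measure were chosen with earlier results of these data known. Summit pileup and local background were solved from fold and −log10 p with a pseudocount of 1 and a Poisson upper tail, which is how MACS2 is known to work; the width of the window behind the local background is also not known. The solver and the sign-flip test were tested on simulated data. Pileup, local background, the 6 stretches and the ranks by pileup were added after seeing the values.

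The named regions were, by rule, up to 10 with an adipose peak, the 10 exclusive muscle regions with the best worst fold percentile, the 3 widest of those exclusive regions, and the 3 most variable. Within muscle, medians (means for summits, percent for strong peaks) of cluster and other peaks of each list were compared with an exact two-sided sign-flip test over 5 libraries and Benjamini-Hochberg adjustment. Alternatives were other thresholds, counting units, window sizes, comparison peaks, and leaving out each library. Sarcomere genes outside the cluster were planned and not placed, for want of rn6 positions. Depth is relative, so no counting interval is given. Scripts ran under Python 3.11.15 with SciPy 1.17.1, NumPy 2.4.6 and pandas 2.3.3, and plots were drawn with matplotlib 3.10.9.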

Additional observations from a re-analysis of the deposited data

Results flagged for a closer look

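Of 55 sets of 5 libraries checked for a sample far from the others, 6 held one, where chance gives about 1 in 20. Muscle replicate 2 had 85 peaks in the interval, and the others 78 or 79. Muscle replicate 3 had 19 peaks in the first 100 kb, and the others 15 or 16. Muscle replicate 1 had a median local background of 1.20 times the genome-wide level from 260 to 350 kb, over 2 peaks, and the others 1.00 or 1.01. Muscle replicate 5 had the highest relative pileup at chr10:53595187-53596350, at 118, and at chr10:53668255-53668843, at 162. Muscle replicate 1 stood apart at chr10:53682963-53683463, with a relative pileup of 65.4.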

How the results depend on the processing

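Of 118 alternative values, 96 kept their direction (values of a test) or stayed within an allowance (counts and means), 11 moved and 11 changed sign. The allowance was wide. It took in 21 windows of 5 kb (main value 16), 41 regions without muscle replicate 4 (main value 34) and 7.80 adipose peaks above the highest list floor (main value 10.2). Where a value moved or changed sign, the cause was not tested unless the setting itself counts something else. Peaks per muscle library were 51.4 with a −log10 q of at least 5, 66.6 above the highest list floor, 111 by summits, 45.9 per 100000 peaks of the library and 63.4 without the first 100 kb. Peaks per adipose library were 5.40, 13.0 by summits, 4.09 per 100000 peaks and 2.40 without the first 100 kb. Windows of 25 kb without overlap numbered 8. The Jaccard index was 0.668 among strong peaks. The width difference was −4.00 bp against chromosome 10, −52.0 bp against muscle-exclusive regions elsewhere, −36.5 bp among strong peaks and −7.50 bp above the common floor. The fold percentile difference was 31.3 points when ranked by pileup and 7.83 when ranked by −log10 p. The difference in summits per peak was −0.0429 against chromosome 10, −0.0801 among strong peaks and −0.0402 above the floor, and −0.0190 to 0.0418 when each library was left out. The strong share was −17.5 points against muscle-exclusive regions elsewhere and 3.08 against chromosome 10. The pileup percentile difference kept its direction but was 13.5 points against muscle-exclusive regions and 16.5 among strong peaks, where it was 31.3 against all peaks, and the fold percentile difference was −36.8 against muscle-exclusive regions. The difference in local background ran from 7.31 to 9.14 under other comparison peaks, thresholds and without the first 100 kb. Counts without the first 100 kb, the ranks by pileup and by −log10 p, and the adipose libraries with Y peaks alone were chosen after seeing the data. No paired analysis was possible because the differences between tissues carry no test and the tests stay within muscle libraries; the labels share rat numbers between tissues, but Y peaks differ between libraries of 1 number.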
